A study of Mus musculus with 12 samples.

Results

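The loss of the DNA glycosylase NEIL1 was followed over both Neil2 backgrounds of the CA1 pyramidal layer of the mouse hippocampus. RNA of 10 of the 12 libraries of the series entered: NEIL1 was absent in 4 of them, 2 Neil1-/- and 2 Neil1-/-Neil2-/-, and present in 6, 3 wild-type (WT) and 3 Neil2-/-. For each gene, the NEIL1 coefficient is the log2 ratio of NEIL1-absent to NEIL1-present libraries in an additive fit that also holds a term for NEIL2 status, so that it asks which transcripts followed the loss of NEIL1 whether or not NEIL2 was there. It was estimated for 13982 of the 18558 genes of the table, those with enough counts to be tested.

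Each library came from 1 male mouse, 3 to 6 months old, that had undergone no intervention. The pyramidal layer of dorsal CA1 was cut by laser from 8-µm sections, and poly-A RNA was read as 100-bp pairs. WT mice were C57BL/6N; Neil1-/-, Neil2-/- and Neil1-/-Neil2-/- mice are knockouts that were backcrossed onto C57BL/6N and bred as separate lines, and the study searched their genomes for variants of the 129 strain that had stayed through the backcross. A NEIL1-absent mouse thus carries the targeted Neil1 allele together with the stretch of chromosome that was bred with it, and the 2 cannot be told apart here. Since each genotype was bred as its own line, other differences between the lines cannot be told apart from genotype either. The other 2 libraries, titled N1_3 and N1_2_3, lack NEIL1 by title and by genotype label, but their title and label disagree on NEIL2; they entered no group, were set beside the others as a check, and were fitted only in the alternatives with 12 libraries. The libraries held 19618923 to 21970180 estimated counts, and levels are given as CPM, counts as a share of the TMM-scaled library size. Neil1-/-Neil2-/- replicate 1 stood apart on the first principal component (−26.4, against −12.9 to 16.1 in the other 9 libraries). On the second, Neil1-/- replicate 2 was the highest (21.2, against −20.1 to 12.2 in the other 9 libraries).

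NEIL1 is a bifunctional glycosylase of base excision repair: it cuts oxidized pyrimidines and ring-opened purines out of DNA and then nicks the strand at the empty site. NEIL2 and NEIL3 belong to the same family, and OGG1 and NTHL1 remove overlapping sets of oxidized bases. CA1 pyramidal neurons are the excitatory output cells of the hippocampus, and in neurons, which no longer divide, base excision repair is the main pathway for small oxidative lesions.

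The promoters of Neil1 and of 2 genes of its neighborhood that carry the results, Nlrx1 and Ift46, are shown so that the genes can be placed; that of Neil1 belongs to a transcript that starts inside the span of the gene. Each run holds the 250 bases before the start of a transcript, from RefSeq (GRCm38.p6, the build of the table), written 5′ to 3′ on the strand of the gene. Capitals mark a GC box, which reads GGGCGG in the search, and likewise the box that reads CCAAT and the TATA box. Each motif was searched on both strands, so that capitals can spell the reverse complement, and no matches overlapped in these runs.
Neil1, chr9:57148306-57148555, minus strand: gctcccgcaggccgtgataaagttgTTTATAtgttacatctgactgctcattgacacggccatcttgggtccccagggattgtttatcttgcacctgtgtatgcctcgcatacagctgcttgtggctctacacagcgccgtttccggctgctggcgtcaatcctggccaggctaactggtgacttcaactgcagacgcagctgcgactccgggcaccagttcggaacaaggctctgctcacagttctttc
Nlrx1, chr9:44268600-44268849, minus strand: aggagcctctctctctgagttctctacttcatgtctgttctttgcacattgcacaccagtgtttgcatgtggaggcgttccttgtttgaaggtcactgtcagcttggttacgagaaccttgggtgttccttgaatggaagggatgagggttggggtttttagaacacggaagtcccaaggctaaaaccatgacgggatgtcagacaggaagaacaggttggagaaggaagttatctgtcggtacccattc
Ift46, chr9:44772759-44773008, plus strand: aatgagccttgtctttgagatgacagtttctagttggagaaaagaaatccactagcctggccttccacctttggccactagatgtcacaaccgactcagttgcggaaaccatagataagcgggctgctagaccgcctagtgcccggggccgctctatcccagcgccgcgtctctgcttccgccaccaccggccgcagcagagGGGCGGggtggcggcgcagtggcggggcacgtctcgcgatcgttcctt
A GC box is found in 32.7%, a CCAAT box in 33.8% and a TATA box in 12.4% (as TATAAA) of the 32851 RefSeq promoters of this length. In these windows the letters of a TATA box occurred once upstream of Neil1 and those of a GC box once upstream of Ift46, and no motif of the 3 was found upstream of Nlrx1. G and C made up 54.8%, 48.4% and 60.4% of the 3 runs, against a median of 52.4% over all promoters. Of the 47 genes called below, 36 have a promoter in the RefSeq set.

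Neil1 itself (gene 72774, chr9:57142788-57148688) was not lower in the knockouts. Its level was 3.34, 2.95 and 4.44 CPM in WT and 3.91, 4.05 and 4.01 CPM in Neil2-/- libraries, against 7.67 and 5.97 CPM in Neil1-/- and 6.58 and 7.19 CPM in Neil1-/-Neil2-/- libraries. All 4 libraries without NEIL1 lay above all 6 with it, and the check libraries, at 7.15 CPM (N1_3) and 6.69 CPM (N1_2_3), lay with the first. The NEIL1 coefficient of its own gene was 0.86 ± 0.138 (log2 fold change ± SE; adjusted p = 0.0169, edgeR quasi-likelihood test over all tested genes). The call was lost without Neil1-/-Neil2-/- replicate 2, Neil2-/- replicate 1 or WT replicate 1 (adjusted p up to 0.056). The counts are sums over whole genes, so whether the deleted part gave reads was not checked. Neil2 was too low to be tested, with 5 counts in each WT library, 10 and 5 in Neil1-/- libraries and 0 in each of the Neil2-/- and Neil1-/-Neil2-/- libraries.

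Between the libraries without and with NEIL1, 47 of the 13982 genes differed at an adjusted p under 0.05 (0.336%): 19 were higher without it (0.136%) and 28 lower (0.2%). Their median absolute log2 fold change was 0.65, 14 passed 1 and 18 stayed under 0.5. In 45 of the 47, the 4 libraries without NEIL1 did not overlap the 6 with it (2.35% over all tested genes); the exceptions were Ppp1r1b and Sema7a. All 47 had the same sign in both Neil2 backgrounds (59.5% over all tested genes). Both counts describe the genes only, since the calls were made from the same libraries. Of the 47, 0 had an effect that differed between the backgrounds by edgeR's test of the difference after adjustment (3 did at an unadjusted p under 0.05: Nlrx1, Wscd1 and Cryab). The additive fit favors genes with like effects in both backgrounds, so these counts cannot show that the effects were alike. The count was 83 without Neil1-/- replicate 1 and 28 without WT replicate 2; DESeq2 called 241 genes (120 higher and 121 lower), among them all 47, and limma voom 45, of which 44 were among the 47. In bulk tissue, fewer cells of a type and less RNA per cell cannot be told apart.

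In this fit, most of the called genes lie near Neil1. Of the 47, 34 are on chromosome 9, which holds 800 of the tested genes, and 32 lie within 20 Mb of Neil1 (10 higher and 22 lower), out of 313 tested there (10.2%). On all other chromosomes 13 of 13126 tested genes were called (0.099%). The called genes of chromosome 9 run from Dcps, at −21.97 Mb from Neil1 (negative distances lie at lower coordinates), to Rplp1, at 4.76 Mb. Inside this span 34 of 220 tested genes were called (15.5%), and 0 of the 580 tested genes of chromosome 9 outside it. The densest stretches ran from −15 to −10 Mb, with 12 of 56 tested genes called, and from −10 to −5 Mb, with 8 of 33. This majority depended on the fit: 52 of 83 genes called without Neil1-/- replicate 1, 30 of 55 without Neil1-/- replicate 2, 25 of 48 without Neil1-/-Neil2-/- replicate 2, 69 of 106 with no filter on low counts, 48 of 85 at an adjusted p under 0.1 and 195 of 241 with DESeq2 lay outside the window, where far more genes were tested. From 5 Mb on at the other side of Neil1, edgeR called 0 of 55 tested genes up to 10 Mb, 0 of 20 up to 15 Mb and 0 of 31 up to 20 Mb.

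**Figure D1:**
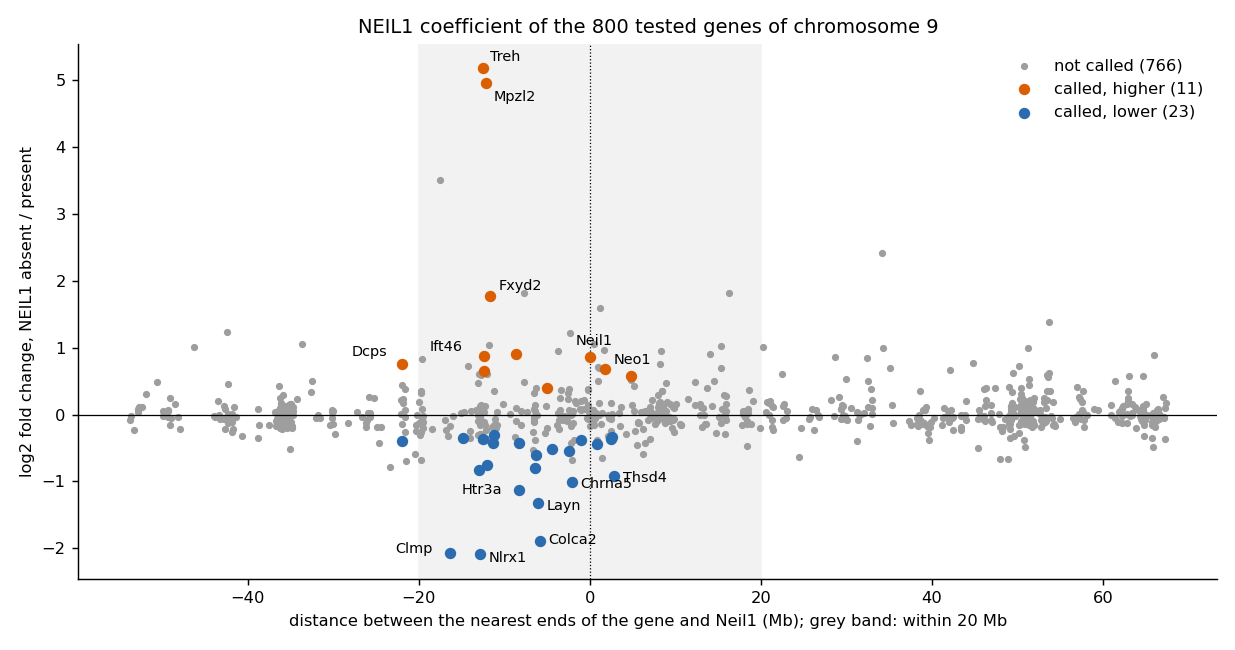
NEIL1 coefficient of each of the 800 tested genes of chromosome 9 (y axis, log2 fold change of NEIL1 absent over present) against its distance from Neil1 (x axis, Mb); orange and blue points are genes called higher (11) and lower (23), grey points the 766 genes not called. The 34 called genes sit between −21.97 and 4.76 Mb, and the largest falls, of Nlrx1 and Clmp, lie at −12.87 and −16.36 Mb.

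The genes that were not called also differed by place, by less. Within 20 Mb of Neil1, the 2 sets of libraries did not overlap for 14 of 281 genes that were not called (4.98%), against 257 of 13113 on other chromosomes (1.96%). The unadjusted p was under 0.05 for 24.2% against 13.2%, and the median absolute log2 fold change was 0.138 against 0.093. These shares are a description, with no test of the difference. Over all tested genes, called ones included, the median was 0.243 and 0.28 in the 5-Mb stretches that start at −15 and −10 Mb, and 0.109 from 5 to 10 Mb. The count in the window was 21 without WT replicate 2, and 19 without Neil1-/- replicate 2 and Neil1-/-Neil2-/- replicate 1 together. With DESeq2, 46 of the 241 called genes lay in the window.

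The called genes near Neil1 are described by the role of their products, an order that was chosen after their values were seen and that names no pathway as changed. Of these genes, Nlrx1 fell the most. Nlrx1 (gene 270151, chr9:44252713-44268599) encodes a mitochondrial protein of the NOD-like receptor family that dampens antiviral signaling. It was at 14.7 to 20.9 CPM with NEIL1 (median 16.7), and at 4.1 and 3.21 CPM in Neil1-/- and 4.91 and 3.84 CPM in Neil1-/-Neil2-/- libraries. The ranges were far apart, and the check libraries, at 3.55 and 4.48 CPM, were as low as the 4. The coefficient was −2.09 ± 0.135 (adjusted p = 3.83e-06), 0.234 of the level with NEIL1. Its fall was −2.37 ± 0.165 with NEIL2 and −1.83 ± 0.161 without it, a difference with an unadjusted p of 0.0362 in the model over all genes that did not pass adjustment. Of the 18 tested members of a list for NLRX1 and mitochondrial antiviral signaling, Nlrx1 was the only gene called, and the median of the list was −0.001.

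Clmp (gene 71566), an immunoglobulin-type adhesion protein of cell junctions, was at 22.7 to 39.4 CPM with NEIL1 (median 27.9), 7.05 and 5.37 CPM in Neil1-/- and 6.92 and 8.47 CPM in Neil1-/-Neil2-/- libraries. It fell by 2.07 on the log2 scale (SE 0.132, adjusted p = 3.83e-06), with no overlap between the sets. Mpzl2, an adhesion protein of the myelin protein zero family, was nearly absent with NEIL1, with 5 counts over the 6 libraries, and at 2.57, 1, 0.834 and 1.33 CPM in the 4 libraries without it, 118 counts in all. This is 36.5 times the rate (95% exact interval 15.2 to 115, counting error only). Layn, which encodes a hyaluronan-binding lectin of the cell surface, fell by 1.32 (SE 0.189, adjusted p = 0.0063), from 3.29 to 5.24 CPM with NEIL1 to 1.32 to 2 CPM without it. Sema7a, a membrane-anchored semaphorin that acts on axons, was among the weakest calls: it was 133 to 207 CPM with NEIL1 and 98.2 to 153 CPM without it, and the sets overlapped (log2 fold change −0.44 ± 0.083, adjusted p = 0.0429, up to 0.43 in the alternatives).

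Fxyd2 (gene 11936), the gamma subunit that tunes the sodium pump, was at 6.5 to 9.35 CPM with NEIL1 (median 8.33). It reached 30.9 and 31.6 CPM in Neil1-/- and 22.2 and 27.6 CPM in Neil1-/-Neil2-/- libraries, and 28.7 and 22.2 CPM in the check libraries. It rose by 1.77 on the log2 scale (SE 0.113, adjusted p = 3.83e-06), 3.42 times the level with NEIL1. Scn2b, the beta-2 subunit of voltage-gated sodium channels, was at 240 to 301 CPM with NEIL1 and at 195, 144, 145 and 162 CPM without it. The sets did not overlap, and it fell by 0.75 (SE 0.086, adjusted p = 0.00161). Chrna5, the alpha-5 subunit of nicotinic acetylcholine receptors, fell to 0.496 of its level, from 27.6 to 33.7 CPM to 22, 11.3, 13.7 and 14.9 CPM (log2 fold change −1.01 ± 0.144, adjusted p = 0.0063). Chrna5 shares bases with Chrna3, and the strand of the reads is not stated in the sources used here, so reads of the 2 genes may have been mixed; Chrna3 was at −0.69 and did not pass the test (adjusted p = 0.462). Htr3a, the serotonin-gated ion channel that marks a class of interneurons, fell from 3.46 to 5.82 CPM to 1.91, 2.56, 1.91 and 2.41 CPM (−1.13 ± 0.182, adjusted p = 0.0169). Its call was lost without Neil1-/-Neil2-/- replicate 1, WT replicate 1 or WT replicate 2, and without Neil1-/- replicate 2 and Neil1-/-Neil2-/- replicate 1 together (adjusted p up to 0.104). The summed level of 14 interneuron markers other than Cck, which gives most of the sum of the full list, was 644 to 800 CPM with NEIL1 and 641, 617, 809 and 685 CPM without it, and its part in this result was not tested.

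**Figure D2:**
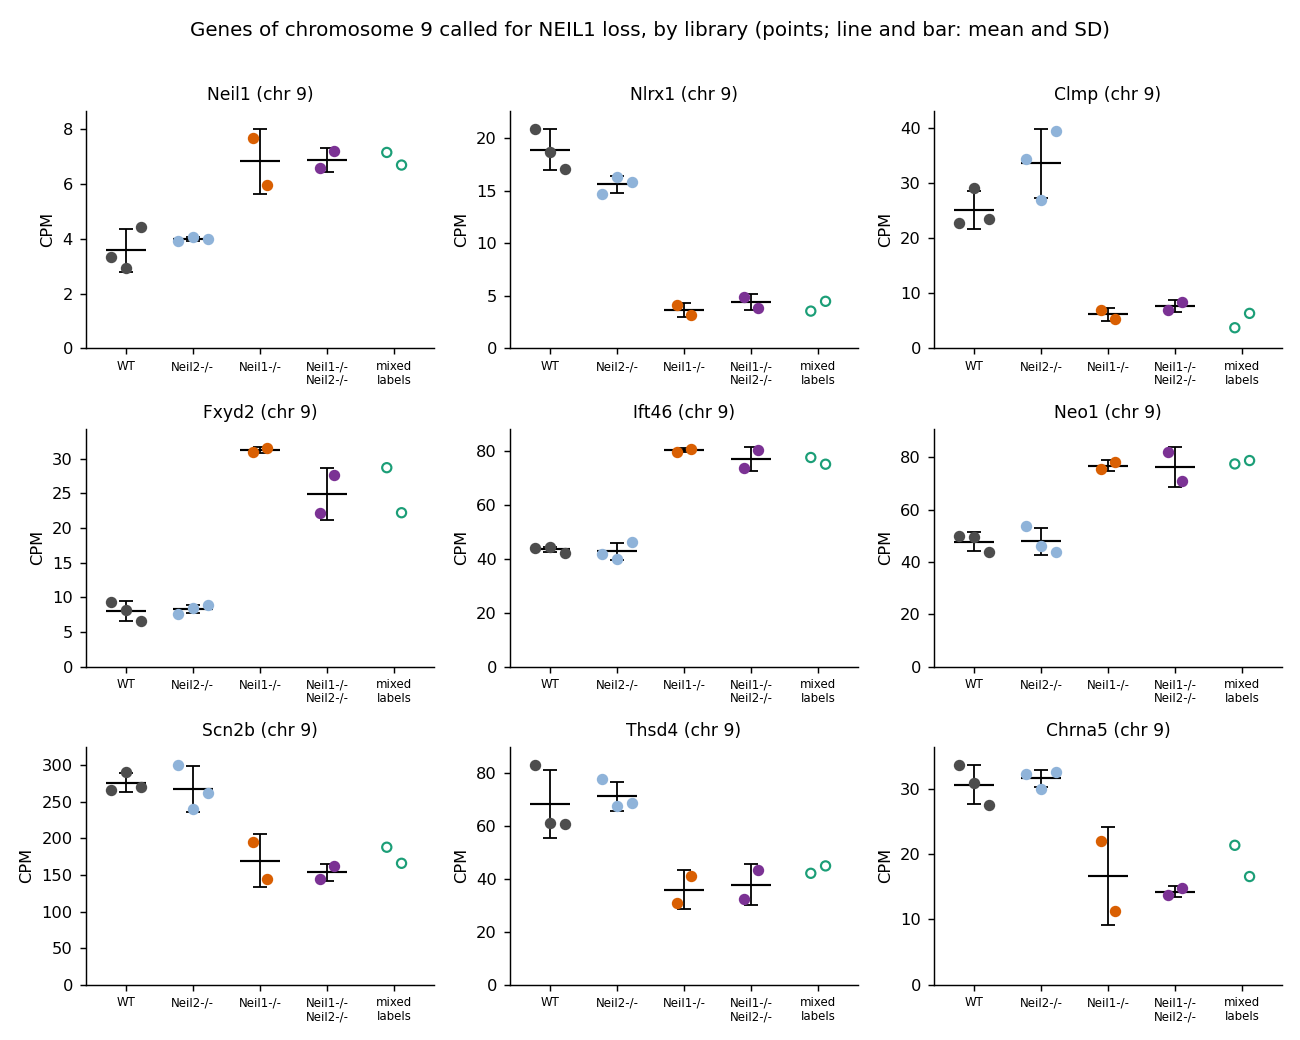
Level (CPM, y axis from 0) of 9 called genes of chromosome 9 in each library, by genotype; filled points are libraries, the line and bar the mean and SD of a genotype, and open points the 2 libraries whose title and label disagree. In each panel the 4 libraries without NEIL1 lie apart from the 6 with it, as for Nlrx1 (3.21 to 4.91 against 14.7 to 20.9 CPM), and the open points lie with the former.

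Ift46 (gene 76568, chr9:44770456-44792714), a subunit of the intraflagellar transport complex B that carries cargo along cilia, was higher in all 4 libraries without NEIL1. It was at 40 to 46.4 CPM with NEIL1 (median 43.2), and at 79.8 and 80.9 CPM in Neil1-/- and 73.8 and 80.3 CPM in Neil1-/-Neil2-/- libraries. The rise was 0.87 ± 0.055 (adjusted p = 3.83e-06), 0.89 ± 0.081 with NEIL2 and 0.85 ± 0.081 without it. Of the 25 tested genes of intraflagellar transport, Ift46 was the only gene called; the median of the list was −0.02. Neo1 encodes neogenin, a receptor for netrins and repulsive guidance molecules, and lies at 1.73 Mb from Neil1. It was at 43.7 to 53.8 CPM with NEIL1 and at 75.5, 78.3, 81.9 and 71.1 CPM without it, a rise of 0.68 ± 0.07 (adjusted p = 5.69e-04). Among the 13 tested genes of neogenin, DCC and their ligands, Neo1 was the only gene called, and the median was 0.03.

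Dcps, the scavenger enzyme that hydrolyses the cap left after mRNA decay, rose from 16.2 to 18.4 CPM to 29.6, 28.6, 28.4 and 31.5 CPM (0.76 ± 0.065, adjusted p = 8.02e-05). Ddx6, an RNA helicase of decapping complexes and P-bodies, fell from 128 to 144 CPM to 103, 95.9, 113 and 102 CPM (−0.36 ± 0.05, adjusted p = 0.00557). The other 16 tested genes of mRNA decapping and decay were not called, and the median of the list was −0.02.

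Pkm, pyruvate kinase of glycolysis and the most abundant called gene, fell from 1210 to 1430 CPM to 1020, 990, 1020 and 1090 CPM (−0.37 ± 0.047, adjusted p = 0.00287). Alg9, a mannosyltransferase of N-glycan precursors, fell from 27.7 to 30.9 CPM to 19.8, 21.5, 18.1 and 17.7 CPM (−0.6 ± 0.07, adjusted p = 0.00189). Treh, which encodes trehalase, had 1 count over the 6 libraries with NEIL1 and 41 over the 4 without it, 63.5 times the rate with a 95% exact interval of 10.8 to 2570 from counting error. All 4 libraries without NEIL1 held it, at 0.452 to 0.542 CPM. Sc5d, which acts late in cholesterol synthesis, fell by 0.35 (SE 0.06, adjusted p = 0.0282).

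Dnaja4, a co-chaperone of the HSP40 family, fell from 98.1 to 130 CPM to 88.3, 76.1, 61.6 and 71 CPM (−0.55 ± 0.072, adjusted p = 0.00387). Cryab, the small heat shock protein alpha-B-crystallin, was at 12.3 to 17.8 CPM with NEIL1 and at 7.43, 7.48, 11.7 and 7.98 CPM without it (−0.81 ± 0.151, adjusted p = 0.0429, up to 0.13 in the alternatives). In a list of 19 tested small and major heat shock genes, which does not hold Dnaja4, Cryab was the only gene called. Bace1, the beta-secretase that cleaves the amyloid precursor protein, fell from 58.9 to 70.7 CPM to 45, 52.1, 45.1 and 43.5 CPM (−0.43 ± 0.071, adjusted p = 0.019). Bace1 overlaps Rnf214, which also fell (−0.31 ± 0.044, adjusted p = 0.00592), so reads of either may count for the other.

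Thsd4, a matrix protein of microfibrils, fell from 60.7 to 83.2 CPM to 30.8, 41.1, 32.2 and 43.2 CPM (−0.92 ± 0.117, adjusted p = 0.00287). Phldb1, which links microtubules to the cell cortex, rose by 0.65 ± 0.096 (adjusted p = 0.00816), and Rdx, the membrane-actin linker radixin, by 0.39 ± 0.073 (adjusted p = 0.0429). Colca2, of no role given here, fell from 1.07 to 1.61 CPM to 0.286 to 0.452 CPM (−1.89 ± 0.261, adjusted p = 0.00557). Small falls, between −0.33 and −0.83, were measured for AI593442, Tspan3 (a tetraspanin), Foxred1 (an assembly factor of respiratory complex I), Myo9a (an unconventional myosin), Zbtb16 (a transcription factor) and Cbl (a ubiquitin ligase), at adjusted p from 0.00592 to 0.0429. Rplp1, a protein of the ribosomal stalk, rose by 0.57 ± 0.102 (adjusted p = 0.0323) and Gm5617 by 0.91 ± 0.157 (adjusted p = 0.0271); ribosomal protein genes have processed copies that can share reads, so the level of Rplp1 is uncertain.

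The 2 Neil2 backgrounds give the same comparison from separate libraries. Both came from 1 fit that shares scaling and the estimate of spread, so their tests are not fully independent. Neil1-/- against WT called 28 genes (0.2%) and Neil1-/-Neil2-/- against Neil2-/- 31 (0.222%). In both, 7 genes were called in the same direction, 25% of the first list and 22.6% of the second: Clmp and Nlrx1 lower and Dcps, Fxyd2, Gm2427, Ift46 and Neo1 higher. The 28 became 17 without Neil1-/- replicate 2, and the 31 became 14 without Neil1-/-Neil2-/- replicate 1, 284 without Neil1-/-Neil2-/- replicate 2 and 20, 18 and 18 without Neil2-/- replicate 1, 2 and 3. Of the 8 genes within 20 Mb of Neil1 called in Neil1-/- against WT, all 8 had the same sign and an unadjusted p under 0.05 in the other background, and 5 were called there. Of the 12 called there in Neil1-/-Neil2-/- against Neil2-/-, all 12 had the same sign and 11 an unadjusted p under 0.05 in the first. Outside the window, 9 of 20 genes called in Neil1-/- against WT and 8 of 19 called in Neil1-/-Neil2-/- against Neil2-/- had the same sign in the other background, and 3 were called in opposite directions (Mid1, Tmem254b and Ccl21b). Over all tested genes, called or not, 59.5% had the same sign in both backgrounds.

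**Figure D3:**
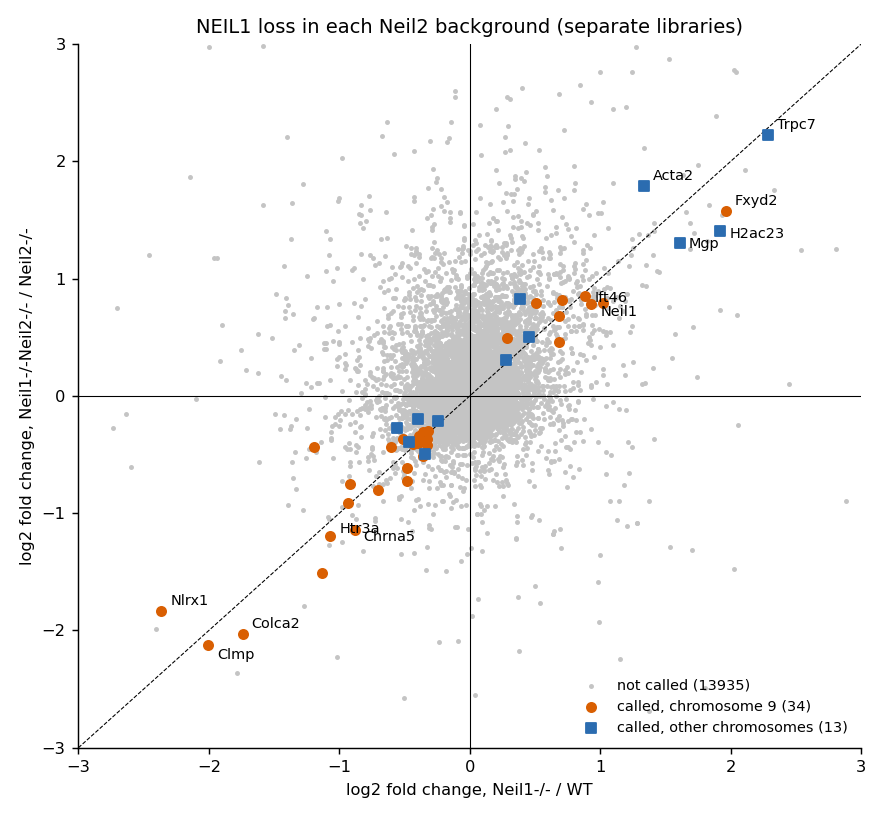
Log2 fold change of NEIL1 loss with NEIL2 present (x axis, Neil1-/- over WT) and with NEIL2 absent (y axis, Neil1-/-Neil2-/- over Neil2-/-), 1 point per tested gene; orange circles are the 34 called genes of chromosome 9, blue squares the 13 on other chromosomes and grey points the 13935 genes not called. The called genes lie along the dashed line of equal effects, from Nlrx1 and Clmp at the lower left to Fxyd2 and Trpc7 at the upper right. The additive fit favors genes near this line, so their place describes the calls only. Outside the axes, which end at 3, fall 3 called genes (Gm2427, Treh and Mpzl2) and 58 others.

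The difference between the 2 NEIL1 effects was called for 13 genes (0.093%), 0 of them within 20 Mb of Neil1, and had an unadjusted p under 0.05 for 772. The 13 became 41 without Neil1-/-Neil2-/- replicate 2. For example, Wdfy1 on chromosome 1, whose protein recruits TRIF to endosomal Toll-like receptors, was at 34.1, 34.7 and 32.7 CPM in WT and 34.1 and 34.6 CPM in Neil1-/- libraries. It was at 31.2, 34.2 and 34.1 CPM in Neil2-/- but at 8.73 and 9.31 CPM in Neil1-/-Neil2-/- libraries, so its additive coefficient of −0.81 is the mean of unlike effects (difference −1.9 ± 0.124, adjusted p = 1.92e-05).

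The 2 check libraries gave values for the same genes in mice that had no part in the 47 calls. Both lay beyond the range of the 6 libraries with NEIL1, on the side of the coefficient, for 36 of the 47 called genes, against 4.96% of all tested genes. Within 20 Mb of Neil1 this held for 29 of 32 genes, all but Myo9a, Sema7a and Zbtb16. Elsewhere it held for 7 of 15: Dcps and Foxred1 on chromosome 9, and Gm2427, H2ac23, Fam8a1, St6gal2 and Gpr137c. For Neo1 the check libraries were at 77.5 and 78.8 CPM and for Dcps at 29.4 and 34 CPM, inside or above the range of the 4 libraries without NEIL1. For Mgp they were at 0.986 and 1.43 CPM, with the libraries that have NEIL1.

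On other chromosomes 13 genes were called, 8 higher and 5 lower, and their calls held less often: 1 of the 13 was called in each of the 24 alternatives, against 14 of the 32 within 20 Mb of Neil1; this difference itself was not tested. The 15 calls outside the window became 52 without Neil1-/- replicate 1, 30 without Neil1-/- replicate 2, 25 without Neil1-/-Neil2-/- replicate 2 or WT replicate 3, 10 without Neil2-/- replicate 3 or WT replicate 1, 8 without Neil2-/- replicate 2, and 7 without Neil1-/-Neil2-/- replicate 1, Neil2-/- replicate 1 or WT replicate 2. The gene that held is Gm2427 on chromosome 1, of no role given here. It had 2 counts over the 6 libraries with NEIL1 and 273 over the 4 without it, at 3.15 to 3.56 CPM, and 4.49 and 3.94 CPM in the check libraries (211 times the rate, 95% exact interval 57.9 to 1750 from counting error). RefSeq places Gm7592 and Gm2666 over the same bases, so the count is uncertain. The same holds for H2ac23, a histone gene with near-identical copies, which was at 1.16 to 2.98 CPM with NEIL1 and at 6.05, 5.57, 7.16 and 3.84 CPM without it (1.66 ± 0.238, adjusted p = 0.0063).

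Mgp, matrix Gla protein, an inhibitor of calcification, rose from 1.02 to 1.6 CPM to 4.29, 3.92, 3.63 and 2.61 CPM (1.46 ± 0.186, adjusted p = 0.00287). Acta2, the actin of smooth muscle and mural cells, was at 1.27 to 2.96 CPM with NEIL1 and at 9.24, 3.01, 6.77 and 4.28 CPM without it (1.56 ± 0.292, adjusted p = 0.0429), and kept its call in 7 of 23 alternatives at the same threshold. Col4a1, a collagen of basement membranes, fell from 33.7 to 44 CPM to 28.3, 30.2, 27.9 and 32.8 CPM (−0.42 ± 0.072, adjusted p = 0.0248, up to 0.468 in the alternatives). In the check libraries Mgp, Acta2 and Col4a1 lay inside or next to the range of the libraries with NEIL1, with Acta2 at 1.28 and 2.51 CPM. The summed level of 14 endothelial and pericyte markers was 511 to 539 CPM with NEIL1, 545 to 567 CPM without it, and 467 and 525 CPM in the check libraries. Most of this sum is Bsg; without Bsg it was 101 to 133 CPM with NEIL1 and 122, 121, 170 and 136 CPM without it, so that the sets overlapped, and its part in these results was not tested.

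Ppp1r1b encodes DARPP-32, the phosphatase inhibitor of dopamine signaling that is abundant in striatal neurons. It was at 51.9, 58.9 and 56.8 CPM in WT and 69.8, 77.9 and 79.4 CPM in Neil2-/- libraries, and at 80 and 73.1 CPM in Neil1-/- and 113 and 101 CPM in Neil1-/-Neil2-/- libraries. In each background the libraries without NEIL1 lay above those with it, though Neil1-/- overlapped Neil2-/-, and the coefficient was 0.48 ± 0.06 (adjusted p = 0.00287). The call was lost when the 2 check libraries, at 57.5 and 67.7 CPM, were added by title or by label, and without the term for NEIL2 (adjusted p up to 0.48). The summed level of 15 markers of thalamus and striatum, Ppp1r1b among them, was 285 to 396 CPM with NEIL1 and 420, 304, 559 and 445 CPM without it, and its part in this call was not tested. Trpc7, a cation channel, rested on 2 libraries: it was at 0.193 to 0.326 CPM with NEIL1, at 1.76 and 1.62 CPM in Neil1-/- replicate 2 and Neil1-/-Neil2-/- replicate 1, and at 0.476 and 0.689 CPM in the other 2 (2.26 ± 0.419, adjusted p = 0.0429, up to 0.624 in the alternatives). Wscd1 and Fam8a1 rose by 0.61 ± 0.101 and 0.29 ± 0.049, and Phf20 (a chromatin reader), St6gal2 (a sialyltransferase), Stxbp5l (a tomosyn that restrains exocytosis) and Gpr137c fell, with log2 fold changes from −0.43 to −0.23, all at adjusted p from 0.0201 to 0.0396.

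**Figure D4:**
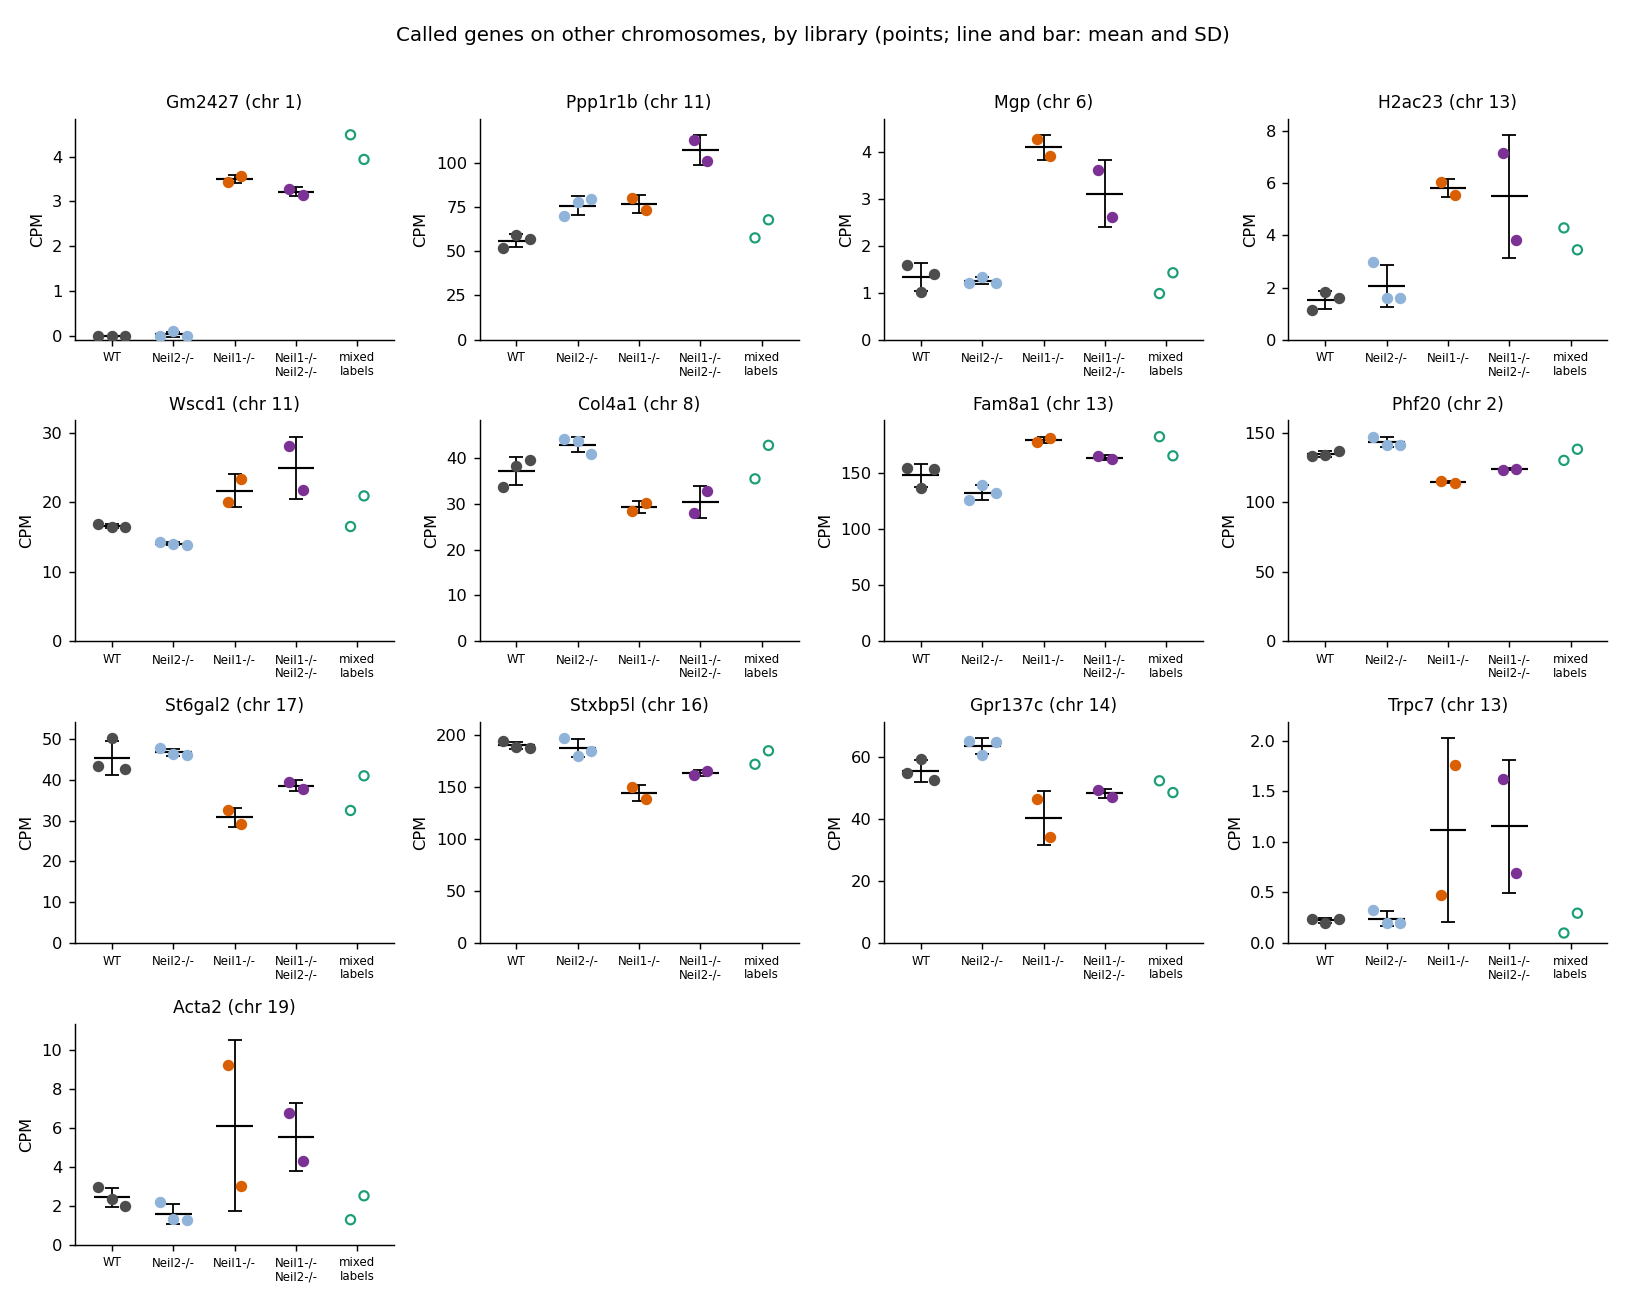
Level (CPM, y axis with 0 included) of the 13 called genes on other chromosomes in each library, by genotype, ordered by adjusted p; filled points are libraries, the line and bar the mean and SD of a genotype, open points the 2 libraries with disagreeing labels. Gm2427 is near 0 in all 6 libraries with NEIL1 and above 3 CPM in the other 6, while the open points of Mgp, Trpc7 and Acta2 lie with the libraries that have NEIL1.

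Markers of CA1 pyramidal neurons were abundant in all libraries. The 13 on the list summed to 6220 to 7320 CPM with NEIL1 and 6130 to 6830 CPM without it, and edgeR called 0 of them (2 at an unadjusted p under 0.05, Ndst4 lower and Dcn higher; DESeq2 called 1, limma voom 0). Dcn, a matrix proteoglycan, was at 30.6 CPM in Neil1-/- replicate 2 and at 0.549 to 4.72 CPM in the other 9 libraries. The median log2 fold change of the list was −0.03, against 0.004 over all tested genes. RNA of other cells differed most in 1 library. In Neil1-/-Neil2-/- replicate 1 the 17 oligodendrocyte markers summed to 1400 CPM, against 561 to 689 CPM with NEIL1 and 575 to 775 CPM in the other 3 libraries without it. The same library was the highest for choroid plexus and ependyma (467 CPM, against 118 to 254 with NEIL1) and blood (274 against 67 to 118). It was also the highest for thalamus and striatum (559 against 285 to 396), above Neil1-/- replicate 1 (420) and Neil1-/-Neil2-/- replicate 2 (445). The part of these lists in the calls was not tested; without this library 33 genes were called, 26 of them within 20 Mb of Neil1.

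**Figure D5:**
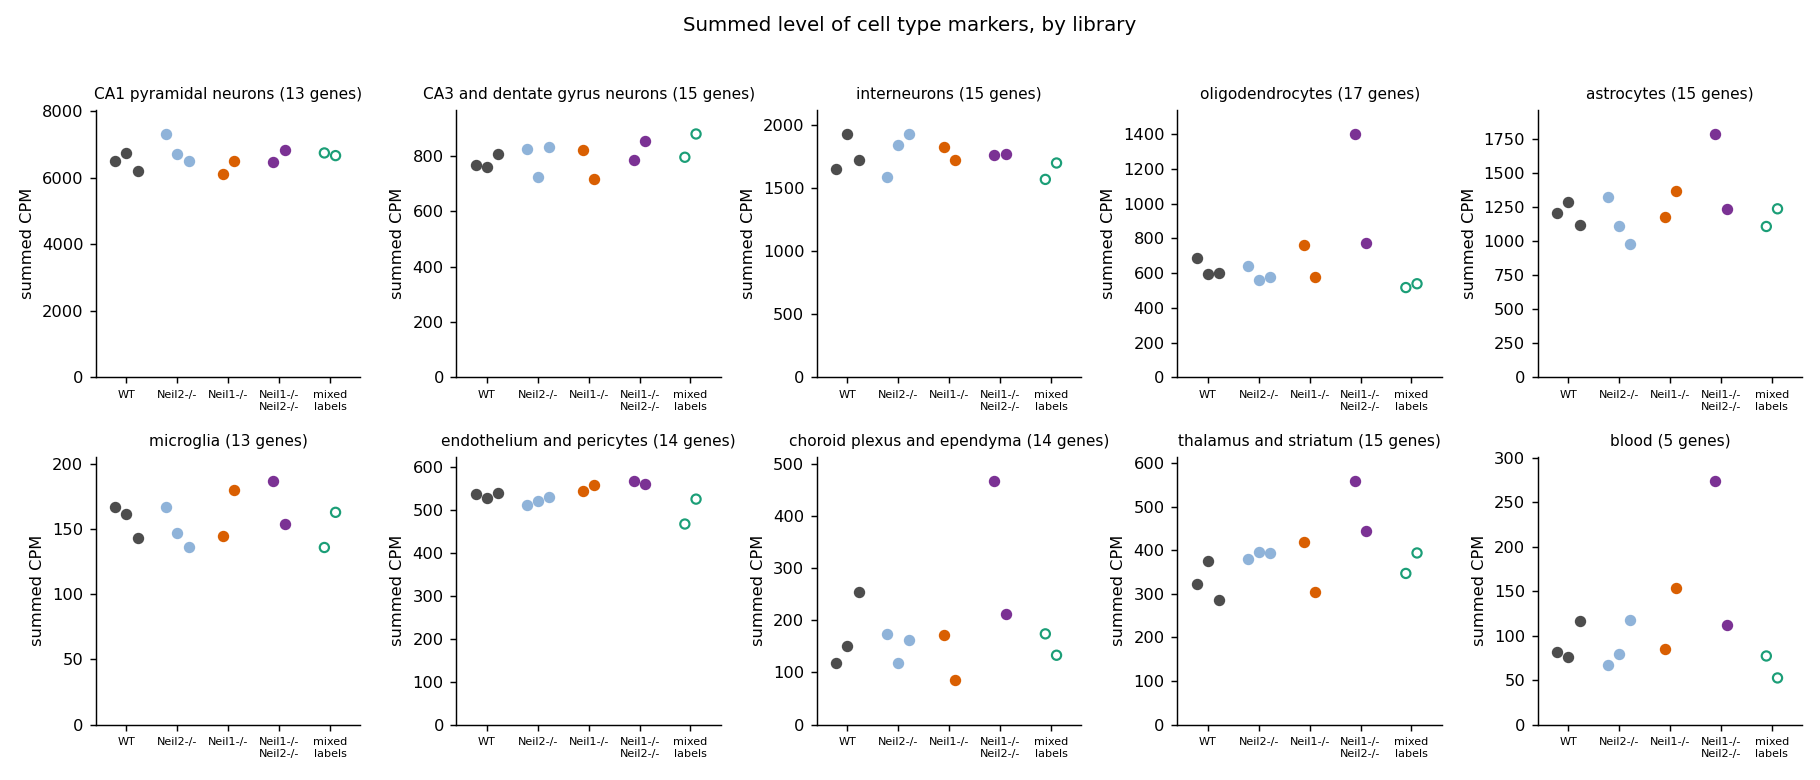
Summed CPM of each list of cell type markers (y axis from 0) in each library, by genotype; filled points are libraries of the 4 genotypes, open points the 2 libraries with disagreeing labels. Neil1-/-Neil2-/- replicate 1 stands above all other libraries for oligodendrocytes (1400 CPM) and choroid plexus (467 CPM), while CA1 markers span 6130 to 7320 CPM.

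All 17 oligodendrocyte markers had a positive coefficient (median 0.42), 12 of them at an unadjusted p under 0.05, but edgeR, DESeq2 and limma voom called 0. Mbp, the myelin basic protein, was at 217 to 270 CPM with NEIL1, and at 306 and 245 CPM in Neil1-/- and 573 and 298 CPM in Neil1-/-Neil2-/- libraries (0.57 ± 0.171, adjusted p = 0.206). Without Neil1-/-Neil2-/- replicate 1 the median of the list was 0.16 with 1 member at an unadjusted p under 0.05; without Neil1-/- replicate 2 as well, it was 0.31 with 11 members, and with 12 libraries by title 0.23 with 0 members. Of 15 astrocyte markers, all were positive (median 0.27), 7 at an unadjusted p under 0.05 and 0 called by edgeR or limma voom (2 by DESeq2); without Neil1-/-Neil2-/- replicate 1 the median was 0.11 with 5 such members, and without Neil1-/- replicate 2 as well 0.07 with 2. Gfap, the intermediate filament of astrocytes, was at 23 to 43 CPM with NEIL1 and at 48.9, 59.1, 77.6 and 48.4 CPM without it, which did not overlap, though the check libraries were at 37.3 and 46.7 CPM (0.74 ± 0.164, adjusted p = 0.0972). Of 15 markers of thalamus and striatum, 10 had an unadjusted p under 0.05, all positive. Only Ppp1r1b was called by edgeR, while limma voom called 1 and DESeq2 3. The median of the list was 1.06. Without Neil1-/-Neil2-/- replicate 1 it was 0.37, without Neil1-/- replicate 2 it was 1.44, and without both 0.475. With 12 libraries by title it was 0.764, with 5 members at an unadjusted p under 0.05 and 0 called. Prkcd, abundant in thalamic neurons, was at 1.3 to 2.15 CPM with NEIL1, at 25.7 and 16.5 CPM in Neil1-/- replicate 1 and Neil1-/-Neil2-/- replicate 1, and at 1.71 and 2.46 CPM in the other 2 libraries.

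No gene was called in the lists for other DNA glycosylases, later base excision, the oxidized nucleotide pool, p53 or DNA methylation. Other DNA repair pathways had no list. Of 8 tested DNA glycosylases, edgeR, DESeq2 and limma voom called 0, with a median of −0.03 and 1 member at an unadjusted p under 0.05. That member is Tdg, which removes thymine and oxidized methylcytosine, at 60.8 to 68.5 CPM with NEIL1 and a coefficient of −0.13 ± 0.053 (adjusted p = 0.313). Ogg1, which removes 8-oxoguanine, was at −0.18 ± 0.135 (adjusted p = 0.563) and Nthl1 at 0.17 ± 0.311 (adjusted p = 0.84). Of the 23 genes that act after the glycosylase, 0 were called by any of the 3 tools and 4 had an unadjusted p under 0.05, with Polg, the mitochondrial DNA polymerase, at −0.17 ± 0.065 and Lig3, a DNA ligase, at −0.17 ± 0.068. The 8 genes of the oxidized nucleotide pool, 18 of p53 and its targets, and 13 of DNA methylation and demethylation had 0 calls by the 3 tools, with 0, 1 and 0 members at an unadjusted p under 0.05 and medians of 0.05, 0.002 and −0.01.

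Respiratory chain and antioxidant genes leaned upward by small amounts. Of 42 respiratory chain and ATP synthase genes 36 were positive, with a median of 0.09, and 51.1% of all tested genes were positive. An unadjusted p under 0.05 was found for 6 of the 42, against 13.8% of all tested genes, and 0 were called by the 3 tools. The smallest p among them was that of Uqcrh, a subunit of complex III (0.25 ± 0.071, adjusted p = 0.189). Of 29 antioxidant genes 24 were positive (median 0.08), 6 had an unadjusted p under 0.05 and 0 were called by the 3 tools. Sod1, the cytosolic superoxide dismutase, was at 0.16 ± 0.05 (adjusted p = 0.221). Without Neil1-/- replicate 2 the medians of the 2 lists were 0.065 and 0.048. Without Neil1-/-Neil2-/- replicate 1 they were 0.116 and 0.08. With 12 libraries by title they were 0.054 (35 positive) and 0.055 (22 positive). In that fit 1 respiratory gene was positive at an unadjusted p under 0.05, and 2 antioxidant genes were positive and 1 negative.

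Inhibitory receptors leaned downward. Of 15 tested GABA receptor genes 9 had an unadjusted p under 0.05, all negative, with a median of −0.15; 13.8% of all tested genes had such a p. Gabra4, the alpha-4 subunit, was at −0.17 ± 0.047 (adjusted p = 0.185). EdgeR and limma voom called 0 and DESeq2 2. Without Neil1-/-Neil2-/- replicate 1 the median was −0.14, with 7 members at an unadjusted p under 0.05; there were 5 such members without Neil1-/- replicate 2, 4 without both of these libraries, 6 with 12 libraries by title and 5 by label. Of 16 NMDA, AMPA and kainate receptor genes 0 were called by the 3 tools and 4 had an unadjusted p under 0.05; Gria1, the main AMPA receptor subunit, was at −0.18 ± 0.058 (adjusted p = 0.221) and Grin2a, the NMDA receptor subunit GluN2A, at −0.33 ± 0.121 (adjusted p = 0.283). Of 35 voltage-gated potassium channel genes, 8 had an unadjusted p under 0.05, edgeR and limma voom called 0 and DESeq2 2.

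The remaining lists held few calls or none. Fxyd2 was the only gene called of 11 FXYD regulators and sodium pump subunits (median 0.09), and Htr3a the only gene called of 11 serotonin receptors (median −0.08) and of 15 interneuron markers (median 0.06). EdgeR and limma voom called 0 of 7 metabotropic glutamate receptors, 17 regulators of G-protein signaling, 21 circadian clock genes, 29 Wnt ligands, receptors and antagonists and 20 genes of cholesterol and fatty acid synthesis (a list without Sc5d, which was called), with 1, 5, 3, 3 and 2 members at an unadjusted p under 0.05, and DESeq2 called 1 clock and 1 Wnt gene. Bhlhe40, a repressor of the clock, had the smallest adjusted p of these, 0.111, at a log2 fold change of 0.24. Of 14 markers of CA3 and dentate gyrus, 13 of microglia, 9 of choroid plexus and ependyma and 5 of blood, 0 were called by the 3 tools, and 4, 0, 1 and 3 had an unadjusted p under 0.05.

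Just outside the threshold stood Npas4, an immediate early transcription factor that shapes inhibitory synapses. It was at 22.3, 17.1 and 13.2 CPM in WT and 15.7, 13.3 and 16.9 CPM in Neil2-/- libraries, and at 8 and 13.3 CPM in Neil1-/- and 8.39 and 6.5 CPM in Neil1-/-Neil2-/- libraries. The sets touched at 13.2 and 13.3 CPM, and the check libraries were at 9.22 and 9.55 CPM. Its coefficient was −0.88 ± 0.173 (adjusted p = 0.0618). Of all 20 tested immediate early genes edgeR and limma voom called 0 and DESeq2 1, Npas4. EdgeR called Npas4 lower without Neil1-/- replicate 2 (adjusted p = 0.015) or WT replicate 3 (0.0193), with 12 libraries by title (0.0135) or label (0.0151), with no filter on low counts (0.0105), and without Neil1-/- replicate 2 and Neil1-/-Neil2-/- replicate 1 together (0.0268). In its other alternatives at the same threshold the adjusted p was up to 0.147. Besides Npas4, Fosl2 (0.6) and Nptx2 (−0.38) had an unadjusted p under 0.05, and the orphan receptors Nr4a1, Nr4a2 and Nr4a3 were at 0.05, 0.03 and −0.04 with adjusted p from 0.864 to 0.928. Just inside the threshold, at an adjusted p of 0.0429, stood Cryab, Rdx, Sema7a, Acta2, Cbl and Trpc7. Kcnd2, the Kv4.2 channel of pyramidal cell dendrites, followed Npas4 among the listed genes at −0.25 ± 0.051 (adjusted p = 0.0726), then Ndst4, a heparan sulfate enzyme used as a CA1 marker, at −0.45 ± 0.094 (adjusted p = 0.0811).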

How the data were processed

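RNA of the CA1 pyramidal layer was measured in 12 libraries, 1 per mouse. The deposited values are estimated counts per gene, which the authors took from the sequencing provider; the submitters' processing notes name Bowtie2, RSEM, HISAT, StringTie and GATK and the builds GRCm38 and mm10, and give no version or role. Of the values, 87.8% were whole; all were rounded to whole numbers. Of 18558 genes, 18429 were matched to RefSeq GRCm38.p6 by gene identifier and 129 were not. None of the sources used here gives the strandedness; 22 of the 47 called genes overlap another gene, 5 of them a tested one. The table had 0 columns that were not used.

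Genes were kept by edgeR's filter (minimum count 10), scaled by TMM and tested by edgeR's quasi-likelihood F-test (edgeR 4.0.16, limma 3.58.1, R 4.3.3) with Benjamini-Hochberg adjustment over all 13982 tested genes; adjusted p under 0.05 was a call, and every adjusted p in the text comes from this fit unless another tool is named. NEIL1 loss was the NEIL1 term of an additive model with NEIL2 status over 10 libraries. The effects within each background and their difference came from a fit with 1 mean per genotype. This design differs from the pairwise DESeq2 comparisons of the study, which left out 2 outlying samples that its text does not name. Its figure legend counts 2 mice each for Neil1-/- and Neil1-/-Neil2-/-, so the samples left out were of these genotypes, both without NEIL1. Whether they are among the 4 NEIL1-absent libraries used here or are check libraries cannot be told from that text. All 10 libraries with matching labels were used here. Where a library was left out of a genotype of 2, the lone library was assumed to vary like the other groups. The fits were tested on simulated data. Alternatives were DESeq2 1.42.0, limma voom, other scaling, filters, dispersions, thresholds, covariates and samples, and a replicate block. The counts per gene list without a library or with another tool, the shares among genes not called and the marker sums without Bsg or Cck were added after the data were seen. The exact intervals of low genes are Clopper-Pearson 95% intervals and cover counting error only. No libraries were duplicates (chi-square per degree of freedom 6.48 to 16 between replicates).

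The members and the gene lists were chosen with earlier results of these data known. The text names Neil1 and Neil2, the 15 highest and 15 lowest called genes, genes called the same way in both backgrounds, the 8 clearest differences between backgrounds, up to 3 members of each list by p, genes the study names in its RNA results, and members of counts of 5 or fewer; other names, such as the remaining called genes and the other genes with unlike effects, were chosen after their values were seen. 1 gene that this rule names is not reported here.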

Additional observations from a re-analysis of the deposited data

Results flagged for a closer look

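In 7 of 94 groups of 4 or 6 libraries of the called genes, the highest or lowest library stood apart from the others by Dixon's criterion; chance gives about 1 in 20 groups. With NEIL1, these were Treh at 0.0499 CPM and Gm2427 at 0.0999 CPM in Neil2-/- replicate 2, where the other 5 libraries were at 0, Ddx6 at 144 CPM in Neil2-/- replicate 1 and AI593442 at 461 CPM in WT replicate 2. Without NEIL1, they were Rplp1 at 468 CPM in Neil1-/- replicate 2, and Cryab at 11.7 CPM and Ift46 at 73.8 CPM in Neil1-/-Neil2-/- replicate 1. These single libraries did not bring the 2 sets of libraries into overlap.

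The effect of NEIL1 loss differed between the Neil2 backgrounds for 13 genes by edgeR's test of the difference (log2 difference, effect without NEIL2 minus effect with it). Each genotype was bred as its own line, so differences between lines and a joint effect of NEIL1 and NEIL2 cannot be told apart here. Mid1, a ubiquitin ligase of microtubules, had 4.97: it was at 48.7, 41.3 and 30.3 CPM in WT, 10.1 and 9.94 CPM in Neil1-/-, 10.7, 9.59 and 7.68 CPM in Neil2-/- and 62.9 and 83.9 CPM in Neil1-/-Neil2-/- libraries. Of the check libraries, N1_3 was at 10.5 CPM and N1_2_3 at 82.4 CPM. Wdfy1 had −1.9, with N1_3 at 33.6 CPM and N1_2_3 at 10.8 CPM. Npy, neuropeptide Y of interneurons, had 1.15: it was at 40.6, 42.7 and 44.8 CPM in WT, 32.2 and 31.6 CPM in Neil1-/-, 26.1, 24.1 and 22.9 CPM in Neil2-/- and 36.9 and 44 CPM in Neil1-/-Neil2-/- libraries. Ndn, the imprinted gene of necdin, had 0.73, with 166 and 171 CPM in Neil1-/- and 303 and 264 CPM in Neil1-/-Neil2-/- libraries against 214 to 245 CPM in the 6 libraries with NEIL1. Drd1, the D1 dopamine receptor of striatal neurons, had 4.44 and was at 10.4 and 4.48 CPM in Neil1-/-Neil2-/- libraries.

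The counts of the other 8 genes are uncertain, since near-identical copies share reads: Tmem254a had −4.06, Tmem254b −3.4, Tmem254c −6.59, Amd2 −6.48, Gm29801 −3.77, Gm29804 −4.55, Ccl21b −13.34 and LOC100041599 −11.34. Fitted differences of genes with a group at 0 counts, such as Ccl21b and LOC100041599 in WT, depend on the prior count and bound no change.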

How the results depend on the processing

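Of the 47 genes, 16 were called in each of 24 alternatives, and 0 reversed in any. Among the 24, the looser threshold of 0.1 on the same fit could not lose a call. In the order NEIL1 loss, within 20 Mb of Neil1 and elsewhere, the counts 47, 32 and 15 became 47, 32 and 15 with RLE scaling, 45, 31 and 14 with limma voom and 241, 46 and 195 with DESeq2. With no filter on low counts, NEIL1 loss gave 106 genes, 69 of them elsewhere; with DESeq2 and no filter, 235 and 189; at an adjusted p under 0.1, 85 and 48. The count elsewhere was 7 without the NEIL2 term and 31 for the mean of the 2 background effects. Without Neil1-/- replicate 2 and Neil1-/-Neil2-/- replicate 1 together the counts were 25, 19 and 6, and Neil1-/-Neil2-/- against Neil2-/- gave 17. A window of 5 Mb held 11 called genes.

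Neil1-/- against WT (28 genes) gave 44 with no filter, 86 with DESeq2, 85 with DESeq2 and no filter and 44 at 0.1. Neil1-/-Neil2-/- against Neil2-/- (31) gave 151, 149, 152 and 64. The difference between the effects (13) gave 22 with no filter and 30 with DESeq2, filtered or not. Genes called the same way in both backgrounds (7) gave 15 with no filter, 21 with DESeq2, filtered or not, and 15 at 0.1. Leaving out 1 library at a time gave 28 to 83 for NEIL1 loss, 21 to 32 within 20 Mb, 7 to 52 elsewhere, 17 to 26 for Neil1-/- against WT, 14 to 284 for Neil1-/-Neil2-/- against Neil2-/-, 10 to 41 for the difference and 5 to 9 for both backgrounds. The causes were not tested.

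Whether replicate numbers pair the libraries could not be settled. Of 13 pairs of libraries with the same number, 3 correlated above 0.1 (−0.259 to 0.283). In genotypes of 2 libraries, the correlations of the 2 mirror each other with opposite sign, so the pairs are not independent. With the replicate block, 38 genes were called for NEIL1 loss, 27 of them within 20 Mb, 23 and 21 in the 2 backgrounds, 11 for the difference and 8 in both. Treh and Gm2427, near 0 counts with NEIL1, are limited by depth.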
